A study of Homo sapiens with 12 samples.

Results

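The lens identity transcription factors described here are 10 genes, PAX6, SIX3, TFAP2A, MEIS1, SOX2, SOX1, FOXE3, PITX3, PROX1 and MAF. They were taken by name from the gene table of the series, which lists 58735 genes, and each of the 10 names was found there once. Of these 10 members, 4 had enough reads to be tested (PAX6, SIX3, TFAP2A and MEIS1), 4 had reads but too few for a test (FOXE3, PITX3, PROX1 and MAF) and 2 had no read in any library (SOX1 and SOX2).

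As background, the lens forms from surface ectoderm that is made competent by TFAP2A, SIX3, MEIS1 and PAX6 and that then turns on SOX2. FOXE3 and PITX3 keep the anterior epithelium of the lens dividing and undifferentiated, while PROX1, MAF and SOX1 act as its cells elongate into fibres and fill with crystallins. PAX6 stands near the top of this network in the eyes of many animals, and it continues to be made in the adult lens epithelium.

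The cells were HLE-B3, an immortalized human line set up from lens epithelium, and total RNA was sequenced in 12 libraries, 3 biological replicates in each of 4 groups. Untreated wild type cells (WT 0 h) and untreated Atg7KO cells, in which ATG7 had been targeted by CRISPR/Cas9 (KO 0 h), were compared with WT and KO cells given 200 μM H2O2 for 12 h (WT 12 h and KO 12 h). Total reads on genes ran from 15602183 to 17659496 per library, with a median of 17205174. The study addressed how autophagy, for which ATG7 is needed, bears on the death of lens epithelial cells under oxidative stress. Knockout cells were selected with puromycin and grown from individual picked clones, which the authors checked for the loss by western blot. The supplement's blots of the knockouts drew on 3 clones. Which clone or clones were sequenced is not given in the sources used here. The loss of ATG7 and the history of a clone therefore cannot be told apart. Untreated cells carry the label 0 h, so H2O2 and 12 h of culture cannot be told apart either.

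ATG7, the targeted gene (ENSG00000197548, chr3:11272309-11557665, plus strand, GRCh38), was read first. Its reads were 433, 429 and 346 in the WT 0 h libraries, 298, 260 and 300 at WT 12 h, 551, 539 and 561 at KO 0 h, and 319, 307 and 360 at KO 12 h. Its mean level was 2.55 ± 0.313 FPKM (fragments scaled by gene length and library size, with SD, n = 3) at WT 0 h, 1.96 ± 0.0411 at WT 12 h, 3.55 ± 0.205 at KO 0 h and 2.19 ± 0.137 at KO 12 h. In KO cells the ATG7 message was therefore not lower than in WT cells at either time, and all 3 KO libraries lay above all 3 WT libraries at 0 h and at 12 h. The log2 fold change of KO over WT cells was 0.47 (SE 0.121, adjusted p = 0.0348 by edgeR) at 0 h and 0.15 (SE 0.0902, adjusted p = 0.135) at 12 h. Without KO 0 h replicate 1, described next, the value at 0 h was 0.43 (adjusted p = 6.02e-06). With the gene length offset, also described next, it was 0.61 (adjusted p = 0.0199) at 0 h and 0.0138 (adjusted p = 0.905) at 12 h. A change of a few bases in the coding sequence need not change the amount of message, so these reads cannot check the label of the KO libraries, which rests on the authors' western blots of the clones.

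Before any comparison, KO 0 h replicate 1 has to be set apart. Its mean Pearson correlation with the other libraries of its group, across genes, was 0.980, against 0.988 for replicates 2 and 3 of that group and 0.996 to 0.997 for each library of the other groups. Its longest genes were low: over the tenth of genes with a length of 10030 bases or more, the median deviation from the mean of all libraries was -0.368 on the log2 scale in this library, against 0.069 and 0.082 in the other KO 0 h libraries. In the WT 0 h libraries that median was 0.121, 0.115 and 0.125, in the WT 12 h libraries -0.126, -0.13 and -0.134, and in the KO 12 h libraries 0.077, 0.086 and 0.097. Long genes thus read low in this library and, to a smaller extent, in all 3 WT 12 h libraries. PAX6, with a length of 20812 bases in the deposited table, is longer than 99.3% of the genes tested, MEIS1 (10934 bases) than 92.2%, TFAP2A (8274 bases) than 83.0% and SIX3 (2523 bases) than 24.9%. Member results that use KO 0 h are given below with and without its replicate 1. The same holds for the counts of called genes in the lists. An added setting with a gene length offset (each library shifted by its own trend on gene length) was chosen after seeing the data.

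The label of the cells was read against marker genes. Of 7 lens epithelium markers, 4 (FOXE3, CDH1, CRYAA and AQP1) stayed under 10 reads in every library. The list's summed level was 27.7, 27.0 and 28.0 FPKM in the WT 0 h libraries, 44.3, 45.6 and 48.5 at WT 12 h, 24.5, 25.8 and 24.9 at KO 0 h, and 52.4, 50.7 and 53.5 at KO 12 h. Nearly all of it was GJA1, the gap junction protein connexin 43, which many other cell types also make (mean 26.1 FPKM at WT 0 h). Of 21 lens structural and fibre genes, 6 had no read anywhere (CRYBA4, CRYGA, CRYGB, CRYGC, CRYGD and LIM2) and 10 more stayed under 10 reads. The summed level of these 21 genes lay between 1.96 and 5.28 FPKM in the 12 libraries, and the most abundant by the mean over all libraries was CRYGS, the gamma-S crystallin (mean 2.11 FPKM at WT 0 h). At WT 12 h CRYAB (1.65 FPKM) stood above CRYGS (1.14 FPKM).

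Mesenchymal markers were far more abundant. All 9 had 10 reads or more, and their summed level was 1138, 1152 and 1137 FPKM at WT 0 h, 706, 673 and 690 at WT 12 h, 819, 896 and 887 at KO 0 h, and 572, 586 and 584 at KO 12 h. The most abundant over all libraries was COL1A1, a chain of type I collagen, with a mean of 626 ± 17.3 FPKM at WT 0 h, and at WT 12 h VIM (299 FPKM, named after its values were seen) stood above it (272 FPKM). Of the 7 lens epithelium markers, 4 stayed under 10 reads, while PAX6 had 446 to 500 reads per WT 0 h library and CRYAB 7 to 11. These sums describe levels and do not decide the identity of the cells. Markers of other eye or surface tissues were mixed. RPE65, RLBP1 and TYR of the retinal pigment epithelium, RAX, SIX6 and SOX10 of the neural retina and neural crest, and KRT3, KRT12, KRT5, KRT14 and TP63 of the corneal and surface epithelium each stayed under 10 reads per library, and OTX2 had none. Others of these lists were present, at WT 0 h means of 75.5 FPKM for KRT8, 42.0 for KRT18, 4.14 for LHX2 and 1.51 for MITF. The surface epithelium list summed to 86.0 to 171 FPKM per library, above the lens epithelium list. Nearly all of that sum was KRT8 and KRT18, while the other 5 genes of the list stayed under 10 reads. The part of these other tissue markers in the results was not tested. In these bulk libraries, fewer cells of a type and less RNA per cell cannot be told apart.

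**Figure D1:**
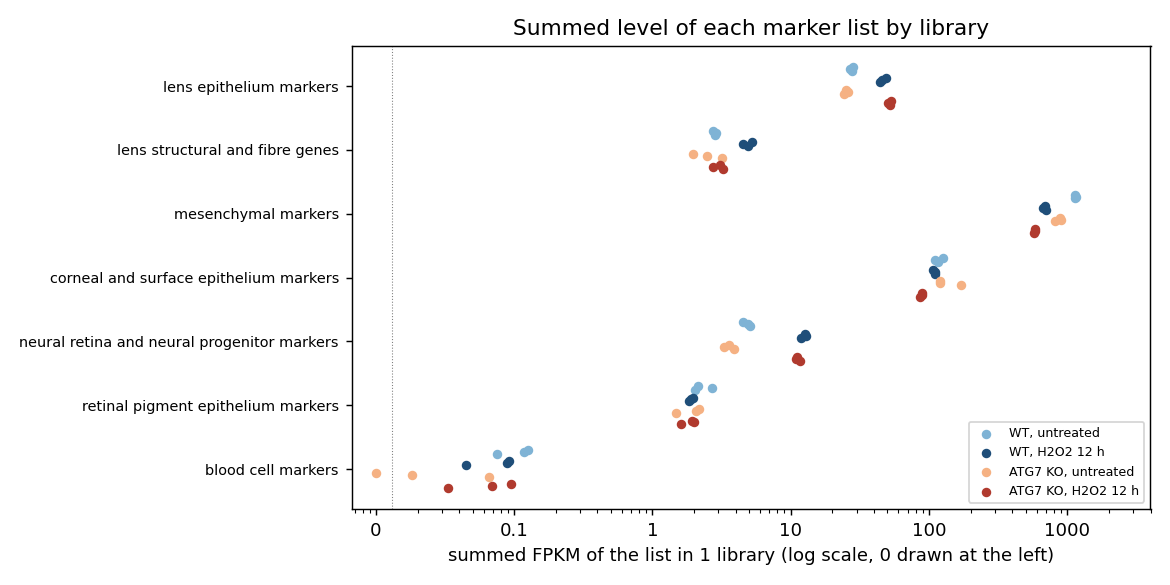
Summed FPKM of each marker list (rows) in each of the 12 libraries (points, coloured by group), on a log axis with 0 drawn at the left. Mesenchymal markers sum to between 572 and 1152 FPKM in every library, and the lens structural and fibre genes to between 1.96 and 5.28 FPKM.

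The members spanned the whole range from 0 to 2360 reads in a library. TFAP2A was the most abundant per length, with a mean of 15.4 FPKM at WT 0 h, above 85.4% of 19951 protein-coding genes. SIX3 followed with 3.06 FPKM (above 57.6% of coding genes), then PAX6 with 1.27 FPKM (48.5%) and MEIS1 with 0.233 FPKM (39.0%). Under the study's own minimum of 1 FPKM, MEIS1 stayed below in every library, and PAX6 was above it in the 3 WT 0 h libraries and in KO 0 h replicates 2 and 3 only.

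**Figure D2:**
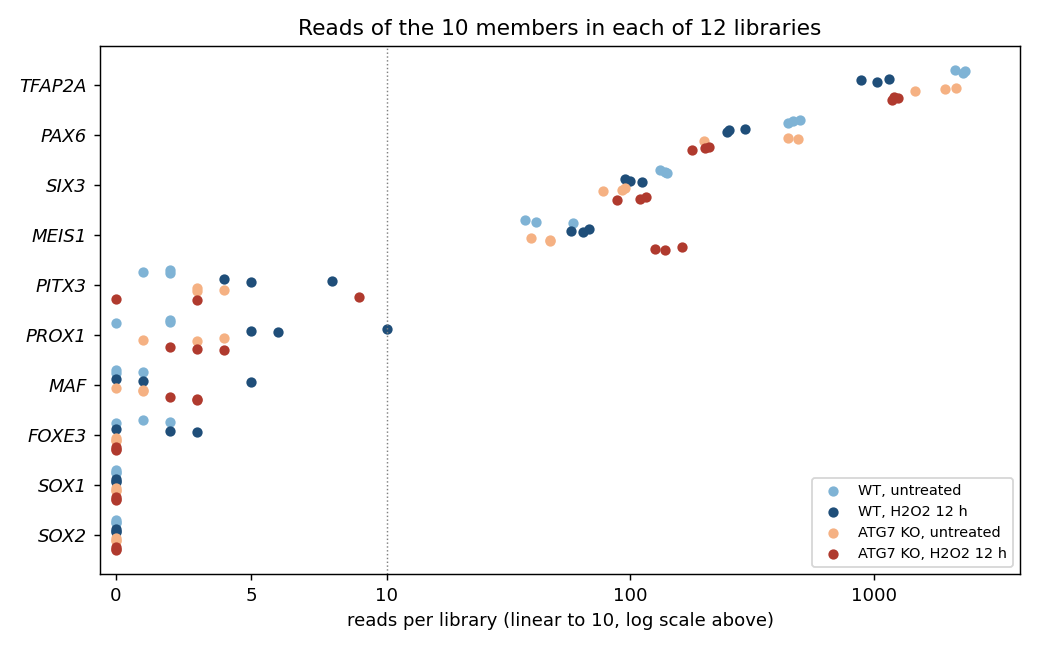
Reads of each of the 10 members (rows) in each of the 12 libraries (points, coloured by group), on an axis that is linear up to 10 reads and logarithmic above. TFAP2A, PAX6, SIX3 and MEIS1 lie above the dotted line at 10 reads in every library, and the other 6 members at or below it.

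SOX2 and SOX1 are the SOX proteins of the early lens, SOX2 as a partner of PAX6 on crystallin enhancers and SOX1 as an activator of gamma-crystallin genes in fibres. Neither SOX2 (ENSG00000181449, chr3:181711924-181714436, plus strand) nor SOX1 (ENSG00000182968, chr13:112067647-112070488, plus strand) had a read in any of the 12 libraries. With 204771744 reads in all, a floor of 3 reads allows up to 0.0147 CPM (reads scaled to library size), which corresponds to 0.00583 FPKM for SOX2 and 0.00516 FPKM for SOX1. SOX2-OT, the long RNA whose span on the same strand covers SOX2, had at most 6 reads in a library.

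FOXE3, the forkhead factor of the anterior lens epithelium (ENSG00000186790, chr1:47416072-47418052, plus strand), had 8 reads in all. They were 0, 2 and 1 at WT 0 h and 3, 2 and 0 at WT 12 h, and all 6 KO libraries had 0. The WT and KO groups share the value 0, and a sum of 5 reads at WT 12 h has a 95% exact Poisson interval from 1.62 to 11.7. No test of WT against KO cells over both times was made. Without the filter on low counts the adjusted p for FOXE3 in KO against WT cells at 12 h was 0.136 by edgeR. These intervals and the floor cover counting error only.

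PITX3, a paired-like homeobox factor whose loss leaves the lens vesicle attached to the ectoderm (ENSG00000107859, chr10:102230186-102241474, minus strand), had 44 reads in all. The libraries had 2, 1 and 2 reads at WT 0 h, 5, 8 and 4 at WT 12 h, 3, 4 and 3 at KO 0 h, and 3, 0 and 9 at KO 12 h. All 3 WT 12 h libraries lay above all 3 WT 0 h libraries, with sums of 17 (interval 9.90 to 27.2) and 5 (1.62 to 11.7) that overlap in their counting error, and the KO 12 h libraries spread around the KO 0 h ones. The 3 KO 0 h libraries also lay above the 3 WT 0 h libraries, by 1 to 3 reads.

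PROX1, the homeobox factor that drives fibre elongation and leaves the epithelium for the fibre nuclei (ENSG00000117707, chr1:213983181-214041502, plus strand), had 42 reads in all. It had 0, 2 and 2 reads at WT 0 h, 6, 5 and 10 at WT 12 h, 3, 1 and 4 at KO 0 h, and 4, 3 and 2 at KO 12 h. The WT 12 h libraries held the 3 highest counts, above every library of the other 3 groups. The summed reads were 4 (interval 1.09 to 10.2) at WT 0 h, 21 (13.0 to 32.1) at WT 12 h, 8 (3.45 to 15.8) at KO 0 h and 9 (4.12 to 17.1) at KO 12 h. When the filter was lifted, edgeR gave PROX1 an adjusted p of 0.0218 for WT 12 h over WT 0 h and 0.230 for KO over WT cells at 12 h, neither past the threshold of 0.01 used here.

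MAF, the large Maf factor that activates crystallin genes in fibres (ENSG00000178573, chr16:79585843-79600714, minus strand), had 17 reads in all. It had 0, 1 and 0 reads at WT 0 h, 5, 1 and 0 at WT 12 h, 1, 1 and 0 at KO 0 h, and 3, 3 and 2 at KO 12 h. The 3 KO 12 h libraries lay above the 3 KO 0 h libraries, while the WT groups overlapped. No fold change is given for these 4 sparse members.

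PAX6 is the paired-box and homeobox factor without which no lens forms (ENSG00000007372, chr11:31784779-31818062, minus strand). Its reads were 446, 467 and 500 at WT 0 h, 249, 254 and 297 at WT 12 h, 201, 488 and 446 at KO 0 h, and 180, 203 and 210 at KO 12 h. The 3 WT 12 h libraries lay below the 3 WT 0 h libraries and above the 3 KO 12 h libraries, and among the KO 0 h libraries replicates 2 and 3 sat with WT 0 h and replicate 1 with KO 12 h. The mean levels were 1.27 ± 0.0741 FPKM at WT 0 h, 1.02 ± 0.384 at KO 0 h, 0.776 ± 0.0638 at WT 12 h and 0.560 ± 0.0481 at KO 12 h. In this order KO 0 h overlapped with both of its neighbours, and WT 12 h and KO 12 h did not overlap.

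SIX3 is a homeobox factor of the eye field that acts upstream of PAX6 in the lens ectoderm (ENSG00000138083, chr2:44941898-44946077, plus strand). It had 141, 139 and 133 reads at WT 0 h, 112, 100 and 95 at WT 12 h, 77, 93 and 95 at KO 0 h, and 88, 110 and 116 at KO 12 h. WT 0 h was the highest group, with no overlap with any other, and the other 3 groups formed a run in which each neighbour overlapped with the next. Mean levels fell in the order 3.06 ± 0.131 FPKM at WT 0 h, 2.46 ± 0.236 at WT 12 h, 2.45 ± 0.355 at KO 12 h and 1.98 ± 0.117 at KO 0 h.

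TFAP2A, or AP-2 alpha, acts in the surface ectoderm and the lens epithelium and is lost from fibres (ENSG00000137203, chr6:10393186-10419659, minus strand). Its reads were 2315, 2360 and 2160 at WT 0 h, 1033, 888 and 1159 at WT 12 h, 1477, 1955 and 2172 at KO 0 h, and 1190, 1255 and 1213 at KO 12 h. Both untreated groups were high and both treated groups low, and KO 0 h replicate 1 was the lowest untreated library. The levels ordered as 15.4 ± 0.682 FPKM at WT 0 h, 12.8 ± 1.73 at KO 0 h, 8.70 ± 0.467 at KO 12 h and 7.49 ± 0.597 at WT 12 h, and no neighbours in this order overlapped.

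MEIS1 is a TALE homeobox factor that binds enhancers of PAX6 in the lens ectoderm (ENSG00000143995, chr2:66433452-66573869, plus strand). It had 58, 41 and 37 reads at WT 0 h, 64, 57 and 68 at WT 12 h, 47, 47 and 39 at KO 0 h, and 139, 127 and 163 at KO 12 h. The 3 KO 12 h libraries stood far above the other 9, and the untreated groups overlapped. Mean levels were 0.770 ± 0.0797 FPKM at KO 12 h, 0.348 ± 0.0118 at WT 12 h, 0.233 ± 0.0622 at WT 0 h and 0.232 ± 0.0350 at KO 0 h, and only the last pair of neighbours overlapped in FPKM.

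**Figure D3:**
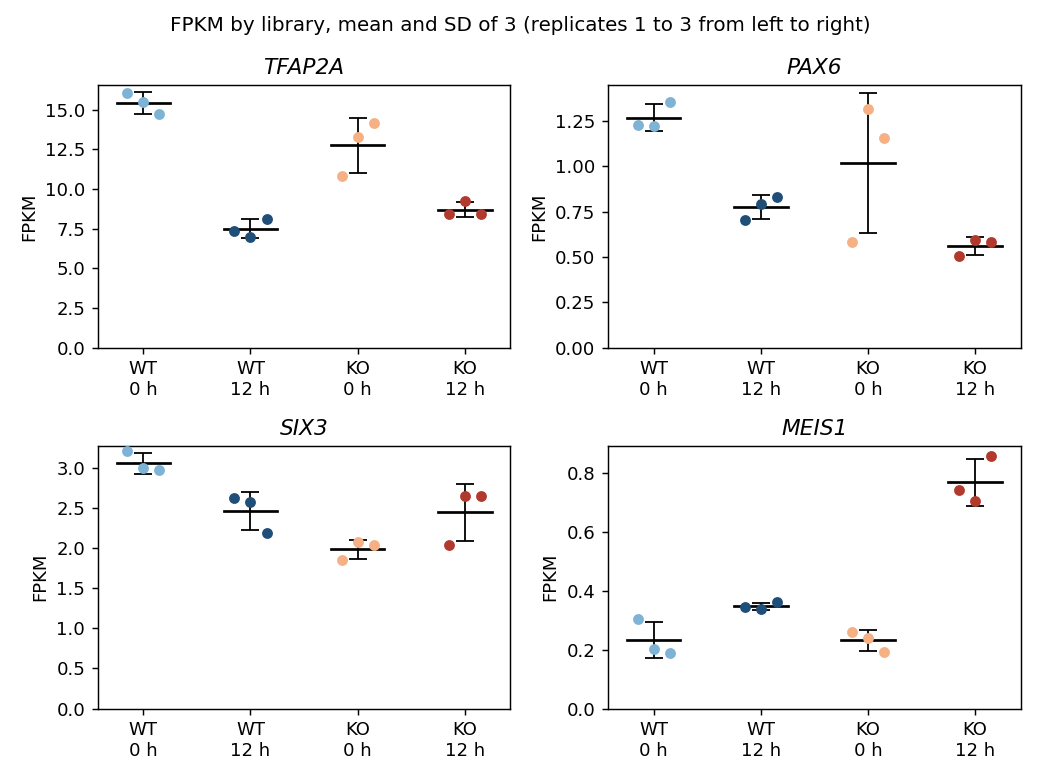
FPKM of TFAP2A, PAX6, SIX3 and MEIS1 (one panel each, axis from 0) in the 4 groups, with each library as a point and the mean and SD of 3 as lines. TFAP2A and PAX6 are lower at 12 h, MEIS1 is highest in KO cells at 12 h, and KO 0 h replicate 1 (leftmost point of that group) is low for PAX6 at 0.586 FPKM.

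Promoters of the 3 members that passed the threshold in the main edgeR fit of some comparison are shown here. SIX3 passed in alternative settings only. The 3 shown include a pair that fell together in WT cells over 12 h (PAX6 and TFAP2A) and a member that rose (MEIS1). The sequences are from a set of RefSeq promoters on GRCh38.p14, in which 7 of the 10 members were matched. PROX1, FOXE3 and SIX3 had no match in that set. Each run is the 300 bases from 250 before to 50 after the first start listed, on the strand of the gene, for PAX6 (the first of 9 starts) chr11:31817912-31818211, for TFAP2A (the first of 2 starts) chr6:10419610-10419909 and for MEIS1 (1 start) chr2:66434875-66435174. Capitals mark letters that match a motif searched on both strands.
PAX6: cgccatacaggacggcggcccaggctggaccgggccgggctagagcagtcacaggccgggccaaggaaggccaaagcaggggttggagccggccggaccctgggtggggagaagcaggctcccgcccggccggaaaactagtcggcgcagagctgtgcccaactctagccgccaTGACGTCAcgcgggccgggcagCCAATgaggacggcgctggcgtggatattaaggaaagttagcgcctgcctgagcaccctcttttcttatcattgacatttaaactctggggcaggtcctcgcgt
TFAP2A: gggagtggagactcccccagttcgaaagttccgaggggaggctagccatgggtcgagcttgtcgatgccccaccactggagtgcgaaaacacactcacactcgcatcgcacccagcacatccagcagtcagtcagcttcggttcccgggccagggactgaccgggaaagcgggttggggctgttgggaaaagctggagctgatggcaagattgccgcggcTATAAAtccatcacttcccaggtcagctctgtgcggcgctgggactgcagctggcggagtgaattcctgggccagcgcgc
MEIS1: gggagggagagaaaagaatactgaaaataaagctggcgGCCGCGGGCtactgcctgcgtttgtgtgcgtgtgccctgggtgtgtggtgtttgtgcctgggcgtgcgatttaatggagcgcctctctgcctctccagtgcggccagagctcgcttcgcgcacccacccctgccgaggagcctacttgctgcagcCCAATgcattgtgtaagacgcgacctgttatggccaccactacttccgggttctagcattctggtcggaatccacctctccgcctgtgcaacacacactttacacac
The 6 motifs searched were the cyclic AMP response element TGACGTCA, the AP-1 element TGACTCA, the E-box CACGTG, the AP-2 element GCCNNNGGC, the CCAAT box CCAAT and the TATA box TATAAA. PAX6 held TGACGTCA from base 175 and CCAAT from base 197, TFAP2A held TATAAA from base 221, and MEIS1 held GCCNNNGGC from base 39 and CCAAT from base 194. Of 35116 promoters in the same table, 1.85% held TGACGTCA, 34.6% CCAAT, 11.5% TATAAA and 23.2% GCCNNNGGC, with 4.95% for TGACTCA and 7.26% for CACGTG. PAX6 and TFAP2A, which fell together in WT cells over 12 h and differed in opposite directions between genotypes at 12 h, shared none of these motifs in the windows shown, while PAX6 and MEIS1 each held CCAAT. A match describes letters only and is neither a binding site nor a cause.

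The comparison of WT 12 h with WT 0 h asks what the cells did over 12 h with H2O2. TFAP2A and PAX6 fell in WT cells, and no member rose past the threshold. TFAP2A fell by 1.04 on the log2 scale (SE 0.0557, adjusted p = 9.88e-22 by edgeR), to 2.06-fold lower, and was lower in 3 of 3 treated libraries than in all untreated ones. PAX6 fell by 0.71 (SE 0.0904, adjusted p = 1.84e-09), a 1.64-fold decrease, again in 3 of 3. SIX3 had a log2 fold change of -0.32 (SE 0.143, adjusted p = 0.0453) and MEIS1 one of 0.58 (SE 0.220, adjusted p = 0.0184), each with 3 of 3 libraries on its side, and neither passed. Of the 4 members tested 2 were called, at an adjusted p under 0.01 over all genes tested, where 61.0% of 15913 genes were called. With the gene length offset SIX3 (-0.45, adjusted p = 0.00502, range over its 16 alternatives 0.00502 to 0.165) and MEIS1 (0.84, adjusted p = 0.000846, range 0.000846 to 0.0967) also passed, and without WT 0 h replicate 1 MEIS1 passed (0.80, adjusted p = 0.00428). PAX6 missed the threshold when all 12 libraries were fitted together (adjusted p = 0.0137, range 5.47e-15 to 0.0137) and fell by 0.33 with the length offset (adjusted p = 0.00158).

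In KO cells over the same 12 h, MEIS1 rose and the other members did not pass with all libraries. MEIS1 rose by 1.73 on the log2 scale (SE 0.173, adjusted p = 0.000356 by edgeR), to 3.31-fold higher, and was higher in 3 of 3 treated libraries. TFAP2A had a log2 fold change of -0.56 (SE 0.125, adjusted p = 0.0106) with 3 of 3 libraries lower. PAX6 had one of -0.87 (SE 0.290, adjusted p = 0.0459) with 2 of 3 treated libraries below all untreated ones, and SIX3 one of 0.30 (SE 0.162, adjusted p = 0.182) with 2 of 3 above. Of the 4 members 1 was called, where 26.0% of 15475 genes were called. Without KO 0 h replicate 1, edgeR called 58.4% of 16002 genes and 3 members: PAX6 fell by 1.15 (adjusted p = 1.79e-25, range over its alternatives 1.79e-25 to 0.143), TFAP2A fell by 0.67 (adjusted p = 4.14e-34, range 4.14e-34 to 0.0547) and MEIS1 rose by 1.82 (adjusted p = 1.36e-17, range 1.36e-17 to 0.00343). SIX3 did not pass there either (0.24, adjusted p = 0.227). With that library kept, TFAP2A passed by DESeq2 (adjusted p = 0.000983), with upper quartile scaling (0.00614), with no filter on low counts (0.00576), with all 12 libraries in one fit (0.000480) and with the length offset (-0.61, adjusted p = 0.000701). PAX6 passed with all 12 libraries in one fit (adjusted p = 0.00518) and with the length offset (-1.0, adjusted p = 0.00103).

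The difference of the 2 responses, KO minus WT, was tested as an interaction over all 12 libraries. MEIS1 rose more in KO than in WT cells, by 1.15 on the log2 scale (SE 0.271, adjusted p = 0.00806 by edgeR), and its 3 KO 12 h libraries were the highest of the 12. SIX3 had a difference of 0.61 (SE 0.196, adjusted p = 0.0321), with a lower value at 12 h in WT cells and a higher one in KO cells. TFAP2A had a difference of 0.49 (SE 0.143, adjusted p = 0.0225) and PAX6 one of -0.16 (SE 0.309, adjusted p = 0.722). So 1 of 4 members was called, where 14.0% of 16856 genes were called. The MEIS1 call is close to the threshold: it held without KO 0 h replicate 1 (1.25, adjusted p = 0.000265) and without WT 0 h replicate 3 (1.29, adjusted p = 0.00851). It was lost without each other library, with an adjusted p of 0.0216 and 0.0117 for WT 0 h replicates 1 and 2, 0.0211, 0.0208 and 0.0162 for WT 12 h replicates 1, 2 and 3, 0.0107 and 0.0147 for KO 0 h replicates 2 and 3, and 0.0171, 0.0141 and 0.0232 for KO 12 h replicates 1, 2 and 3. It was also lost with the replicate block (1.15, adjusted p = 0.0130), by limma on log2(FPKM + 0.1) (0.95, adjusted p = 0.0134) and with the length offset (0.78, adjusted p = 0.0745, range over its 21 alternatives 0.000265 to 0.0745). Without KO 0 h replicate 1, where 34.1% of 17543 genes were called, PAX6 (-0.43, adjusted p = 0.00696, range 0.00696 to 0.996) and TFAP2A (0.39, adjusted p = 1.64e-05, range 1.64e-05 to 0.0906) also passed and SIX3 did not (0.57, adjusted p = 0.0346). TFAP2A passed without KO 0 h replicate 3 (0.58, adjusted p = 0.00832) and with no filter on low counts (0.51, adjusted p = 0.00653). With the length offset PAX6 (-0.70, adjusted p = 0.00700) and SIX3 (0.86, adjusted p = 0.00993, range 0.00993 to 0.0996) passed.

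Untreated KO and WT cells were compared to see what the knockout line differed in before H2O2. No member passed by edgeR, where 7.7% of 15357 genes were called. At an unadjusted p under 0.05 there was 1 member, SIX3, which DESeq2 also called and limma did not. SIX3 had a log2 fold change of -0.62 (SE 0.135, adjusted p = 0.0194), with 3 of 3 KO libraries below all WT libraries. TFAP2A had one of -0.27 (SE 0.125, adjusted p = 0.175) with 3 of 3 lower, PAX6 one of -0.31 (SE 0.274, adjusted p = 0.460) with 2 of 3 lower, and MEIS1 one of -0.01 (SE 0.252, adjusted p = 0.980) with overlapping groups, or -0.09 (adjusted p = 0.816) without KO 0 h replicate 1. Without KO 0 h replicate 1, where edgeR called 36.2% of 15848 genes, SIX3 was lower in KO cells by 0.57 (adjusted p = 0.00262, range over its 16 alternatives 0.00262 to 0.0931) and TFAP2A by 0.16 (adjusted p = 0.00431, range 0.00431 to 0.386). PAX6 was then at -0.03 (adjusted p = 0.817), so its lower mean at KO 0 h rested on that library.

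At 12 h with H2O2, KO cells held more MEIS1 and TFAP2A and less PAX6 than WT cells. MEIS1 was higher by 1.13 on the log2 scale (SE 0.152, adjusted p = 1.09e-07 by edgeR), which is 2.19-fold, in 3 of 3 KO libraries. PAX6 was lower by 0.48 (SE 0.106, adjusted p = 0.000226), which is 1.39-fold, with all 3 KO libraries below all WT libraries. TFAP2A was higher by 0.20 (SE 0.0572, adjusted p = 0.00238), which is 1.15-fold, in 3 of 3. SIX3 had a log2 fold change of -0.01 (SE 0.152, adjusted p = 0.938). In all 3 of the 4 members were called, where 55.6% of 15909 genes were called. The TFAP2A call is lost without WT 12 h replicate 1 (adjusted p = 0.0143), WT 12 h replicate 2 (0.0253) or KO 12 h replicate 2 (0.0203) and in 5 other settings, 8 of its 16 alternatives in all. These are upper quartile scaling (adjusted p = 0.0134), all 12 libraries in one fit (0.111), limma on log2(FPKM + 1) (0.0257) and on log2(FPKM + 0.1) (0.0250), and the length offset (0.08, adjusted p = 0.233, range 2.10e-05 to 0.233). PAX6 was lower by 0.78 with the length offset (adjusted p = 1.21e-07, range 1.21e-07 to 0.109). It missed the threshold when all 12 libraries were fitted together (-0.47, adjusted p = 0.109), by limma on log2(FPKM + 1) (-0.19, adjusted p = 0.0285) and by limma on log2(FPKM + 0.1) (-0.41, adjusted p = 0.0426).

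**Figure D4:**
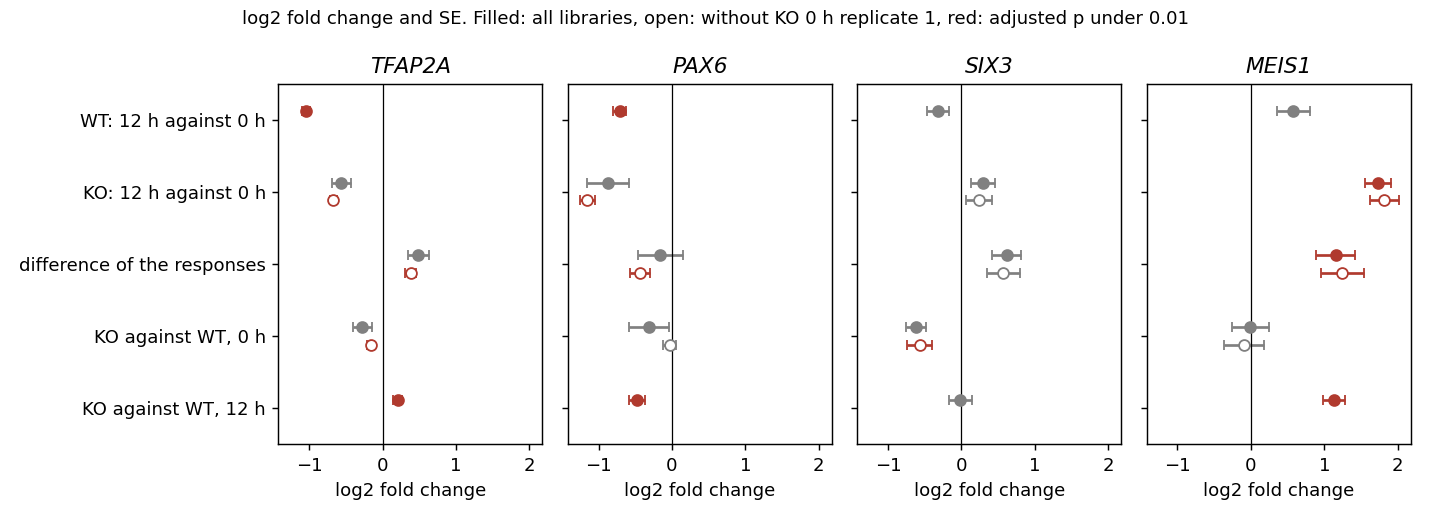
Log2 fold change with SE of the 4 members tested (panels) in each comparison (rows), with all libraries (filled) and without KO 0 h replicate 1 (open), red where the adjusted p is under 0.01. MEIS1 passes in KO cells over 12 h, in the difference of the responses and in KO against WT cells at 12 h, and open PAX6 and TFAP2A points pass where the filled ones do not.

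With 4 members tested, the called shares give no result about the members as a set. The 4 pairwise comparisons share libraries with each other and with the interaction, so their values are not independent. P-values from these replicates set a difference against the spread between libraries of a group. They do not extend to knockout clones that were not sequenced. By the study's own threshold of a log2 fold change beyond 1, TFAP2A in WT cells over 12 h and MEIS1 in KO cells over 12 h and at 12 h against WT passed in size, and MEIS1 stayed under 1 FPKM throughout. With the length offset TFAP2A in WT cells (-0.85) and MEIS1 at 12 h against WT (0.95) did not reach that size, and without KO 0 h replicate 1 PAX6 in KO cells did (-1.15).

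Each member belongs to a family, and 50 relatives were listed. Of these, 8 had no read anywhere and 12 more stayed under 10 reads in each library. MAFG, a small Maf protein that lacks an activation domain, was the most abundant relative, with a mean of 19.5 ± 0.360 FPKM at WT 0 h, 40.4 ± 3.47 at WT 12 h, 23.0 ± 3.97 at KO 0 h and 30.9 ± 0.976 at KO 12 h, while MAF itself was near 0. For the SOX members without reads, the most abundant of 17 relatives by the mean over all 12 libraries was SOX4, at 16.8 ± 0.463 FPKM at WT 0 h and 31.9 ± 0.607 at WT 12 h. SOX9 at KO 12 h (27.4 against 26.5 FPKM) and SOX12 at KO 0 h (19.07 against 18.02 FPKM) stood above it, both named after their values were seen. The AP-2 family was the reverse: TFAP2B, TFAP2C and TFAP2D had no read and TFAP2E reached a mean of at most 0.658 FPKM, so TFAP2A was its most abundant gene in all 4 groups. PAX6 likewise exceeded all 8 PAX relatives in group means. The most abundant of them over all libraries, PAX8, had means from 0.0607 to 0.265 FPKM, and PAX9 (named after its values were seen) stood above PAX8 in both treated groups. For MEIS1 the order was opposite, since its relative MEIS3 had 13.4 ± 0.619 FPKM at WT 0 h, and SIX3 stood below SIX4 (8.32 ± 0.483 FPKM). FOXE1, the only relative listed for FOXE3, had 1.32 ± 0.185 FPKM at WT 0 h and 4.0 ± 0.223 at KO 12 h, and PROX2 stayed at or below 0.0900 FPKM in every group mean.

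The counts of called genes in the lists below stand beside these called shares of all genes: 61.0% in WT cells over 12 h, 26.0% in KO cells over 12 h, 14.0% in the difference of the responses, 55.6% between genotypes at 12 h and 7.7% at 0 h. The shares without KO 0 h replicate 1 are 58.4% in KO cells, 34.1% in the difference of the responses and 36.2% at 0 h. With all 12 libraries in one fit the share between genotypes at 12 h is 28.9%. Over 12 h with H2O2 in WT cells, 15 of the 28 relatives tested rose, 6 fell and 7 did not pass. Their median log2 fold change was 0.95, beside -0.00535 over all genes tested. MAFA, a large Maf factor related to MAF, rose by 4.33 (SE 0.354, adjusted p = 4.60e-15 by edgeR) from 2 to 6 reads to 68 to 74 reads per library. It passed the filter through its treated libraries and enters that median. SOX7, an F-group SOX factor of endothelium, rose by 3.29 (SE 0.254, adjusted p = 6.29e-16), and MAFF, another small Maf protein, by 2.43 (SE 0.0645, adjusted p = 6.18e-23). PITX1, the relative of PITX3 best known from the hindlimb and pituitary, rose by 1.66 (SE 0.242, adjusted p = 4.81e-08). In all 4 genes every treated library lay above every untreated one.

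In KO cells, 11 of the 27 relatives tested rose, 5 fell and 11 did not pass (median 0.42, beside -0.0320 over all genes), and without KO 0 h replicate 1 13 rose and 7 fell of 29. PITX1 rose by 2.62 (SE 0.170, adjusted p = 5.87e-05) and MAFA by 3.57 (SE 0.333, adjusted p = 0.000249), each in 3 of 3 libraries. MAFA went from 3 to 4 reads at KO 0 h to 32 to 45 at KO 12 h. It passed the filter through its treated libraries, so the size of its rise rests on few untreated reads. The responses differed past the threshold for 10 of 29 relatives, with KO minus WT positive for 2 and negative for 8 (median -0.40, beside -0.0329). Without that library it was positive for 4 and negative for 11 of 30. Among the 8, which include genes that rose in both genotypes, were SOX7, with a difference of -1.84 (SE 0.258, adjusted p = 0.000422), and MAFF, with -1.22 (SE 0.157, adjusted p = 0.000252). Both had higher means in untreated KO than in untreated WT cells: SOX7 had means of 0.191 FPKM at WT 0 h, 1.28 at KO 0 h, 1.89 at WT 12 h and 3.50 at KO 12 h, and MAFF 7.22, 11.4, 39.1 and 26.4 FPKM in the same order.

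Between genotypes, 20 of 29 relatives differed at 12 h, 8 higher and 12 lower in KO cells (median -0.17, beside -0.00218), and 4 of 26 at 0 h, all higher (median 0.19, beside 0.00552). At 12 h PITX1 was higher in KO cells by 1.06 (SE 0.147, adjusted p = 1.96e-07), SOX7 by 0.88 (SE 0.136, adjusted p = 1.27e-06), and MAFA was lower by 0.87 (SE 0.210, adjusted p = 0.000568), each with no overlap. At 0 h SOX7 was higher by 2.72 (SE 0.227, adjusted p = 0.000449), and without KO 0 h replicate 1 there were 9 relatives higher and 2 lower of 27.

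Beside the members stood 34 lens regulators and partners, a list of coactivators, Notch genes, homeobox genes, retinoic acid receptors and other factors of the lens. EYA1, SOX11, TFAP2B and TFAP2C had no read, EYA2 stayed under 10 reads, and the most abundant was NOTCH2, a Notch receptor, at 43.0 ± 0.640 FPKM at WT 0 h. In WT cells over 12 h, 11 of 29 tested rose, 14 fell and 4 did not pass (median -0.04). JAG1, the Notch ligand of the lens, rose from 2.37 ± 0.125 FPKM at WT 0 h to 30.6 ± 1.39 at WT 12 h, a log2 fold change of 3.68 (SE 0.0571, adjusted p = 2.86e-43 by edgeR). Its receptor NOTCH1 rose by 1.57 (SE 0.0529, adjusted p = 1.33e-23) and the Notch target HEY1 by 2.15 (SE 0.191, adjusted p = 7.00e-14). MAB21L1, a gene of the lens placode that depends on PAX6, rose by 3.98 (SE 0.309, adjusted p = 7.52e-16), from 4 to 10 reads to 76 to 106. Each of these 4 genes had 3 of 3 treated libraries above the untreated ones.

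In KO cells, 8 of 28 regulators rose, 4 fell and 16 did not pass (median 0.36). JAG1 rose by 3.25 (SE 0.143, adjusted p = 2.14e-05), NOTCH1 by 2.49 (SE 0.271, adjusted p = 0.000511), HEY1 by 2.20 (SE 0.234, adjusted p = 0.000479) and MAB21L1 by 2.75 (SE 0.283, adjusted p = 0.000390), all in 3 of 3 libraries. MAB21L1 went from 5 to 8 reads at KO 0 h to 37 to 53 at KO 12 h. It passed the filter through its treated libraries, so the size of its rise rests on few untreated reads. The summed level of the list was 140 FPKM in KO 0 h replicate 1, against 212 and 204 in the other libraries of its group, and without it 11 rose and 6 fell. The responses differed for 5 of 29 genes (KO minus WT positive for EYA4, SMARCA4 and MEIS2 and negative for HES1 and RARA, median 0.17), and for 15 of 29 without that library, 9 positive and 6 negative. KO cells at 12 h had 9 regulators higher and 7 lower of 28 (median 0.01). Among these JAG1 was lower in KO cells by 0.35 (SE 0.0389, adjusted p = 2.27e-09 by edgeR) and MAB21L1 by 1.07 (SE 0.192, adjusted p = 1.29e-05), each in 3 of 3 libraries. With all 12 libraries in one fit 7 of 29 regulators were called at 12 h. At 0 h 2 of 27 passed, FOXC1 and SMARCA4, both lower in KO cells (median -0.16), and without that library 6 were higher and 6 lower of 27. EYA4, SMARCA4, MEIS2, HES1, RARA and FOXC1 are named after their values were seen.

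Lens induction depends on FGF and BMP signals, and 10 such genes were listed, of which FGFR2 and BMP7 stayed under 10 reads per library. In WT cells 4 of 8 tested rose and 1 fell (median 0.43), and in KO cells 6 of 8 rose and none fell (median 0.85), or 7 of 8 without KO 0 h replicate 1. FGFR3, a receptor for FGF, had means of 4.01 ± 0.0949 FPKM at WT 0 h, 6.25 ± 0.555 at WT 12 h, 1.78 ± 0.189 at KO 0 h and 7.83 ± 0.228 at KO 12 h. It was lowest at KO 0 h and highest at KO 12 h with no overlap, and it rose by 0.63 in WT cells (SE 0.0835, adjusted p = 4.91e-09 by edgeR) and by 2.13 in KO cells (SE 0.117, adjusted p = 3.44e-05). The responses differed for FGFR3 by 1.5 (SE 0.137, adjusted p = 2.87e-05), or 1.42 without KO 0 h replicate 1, and in all for 2 of 8 genes (median 0.38), FGFR3 and BMPR1A, the second named after its values were seen, or for 4 of 8 without that library. NDST1, which sulphates the heparan chains that FGF needs, was the most abundant of the list and rose by 0.65 in WT cells (SE 0.0450, adjusted p = 1.27e-17) and by 1.40 in KO cells (SE 0.236, adjusted p = 0.00331). FRS2, the adaptor of FGF receptors, rose by 1.15 in WT cells (SE 0.0608, adjusted p = 7.33e-22), and BMP4, a ligand of the optic vesicle, rose by 0.94 in KO cells (SE 0.190, adjusted p = 0.00680), all in 3 of 3 libraries. KO cells at 12 h had 4 of these genes higher and 2 lower of 8 (median 0.09). With all 12 libraries in one fit 3 of 8 were called at 12 h. At 0 h FGFR3 alone was called by edgeR, by -1.17 (SE 0.124, adjusted p = 0.00111), and the list median was -0.25. Leaving out KO 0 h replicate 1 gave 2 higher and 4 lower of 8 at 0 h.

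Few of the genes that the members are known to switch on could be tested. Of 21 lens structural and fibre genes, 3 were tested in WT cells over 12 h: CRYAB and BFSP1 rose and CRYGS fell. CRYAB, the alpha-B crystallin and a small heat shock protein made in many stressed cells, went from 7 to 11 reads at WT 0 h to 67 to 102 at WT 12 h, a log2 fold change of 3.24 (SE 0.283, adjusted p = 3.83e-14 by edgeR). In KO cells it had 0 to 2 reads at 0 h and 45 to 50 at 12 h, was the only gene of the list called there with all libraries, and no fold is given against so few reads. CRYGS fell by 0.90 in WT cells (SE 0.204, adjusted p = 0.000138), from 2.11 ± 0.148 to 1.14 ± 0.0610 FPKM, and was at -0.87 in KO cells (SE 0.276, adjusted p = 0.0391), with a difference of the responses of 0.02 (SE 0.318, adjusted p = 0.968). CRYGS passed in KO cells without KO 0 h replicate 1 (-0.74, adjusted p = 0.00798), so that 1 gene of 3 rose and 1 fell. At 12 h 1 of 3 differed between genotypes, CRYAB, which was lower in KO cells by 0.82 (SE 0.191, adjusted p = 0.000378), in 3 of 3 libraries. The count at 12 h was 0 of 3 with all 12 libraries in one fit. It was 2 of 4 without WT 12 h replicate 1, and also without KO 12 h replicate 2. At 0 h edgeR called 0 of 2 (0 at an unadjusted p under 0.05, 0 by DESeq2 and 0 by limma), and in the difference of the responses 0 of 3 (1 at an unadjusted p under 0.05, 0 by DESeq2 and 0 by limma). Leaving out KO 0 h replicate 1 gave 1 of 3 lower at 0 h and 0 of 4 called in the difference of the responses. BFSP1 is named after its values were seen.

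Of the lens epithelium markers, PAX6, CRYAB and GJA1 were tested, and all 3 passed in WT cells, with GJA1 higher by 0.73 (SE 0.05, adjusted p = 8.48e-18). In KO cells CRYAB and GJA1 rose, GJA1 by 1.07 (SE 0.0810, adjusted p = 0.000103 by edgeR). At 12 h GJA1 was higher in KO than in WT cells by 0.21 (SE 0.0429, adjusted p = 8.45e-05) while PAX6 and CRYAB were lower. With all 12 libraries in one fit 0 of 3 were called at 12 h. At 0 h 0 of 2 passed by edgeR (0 at an unadjusted p under 0.05, 0 by DESeq2 and 0 by limma), and in the difference of the responses 0 of 3 (2 at an unadjusted p under 0.05, 1 by DESeq2 and 0 by limma). The difference of the responses passed without KO 0 h replicate 1 for GJA1 (0.34, adjusted p = 2.00e-05) and PAX6 (-0.43, adjusted p = 0.00696). In the same fits 1 of 3 was lower at 0 h, and 2 rose and 1 fell of 3 in KO cells. GJA1 and PAX6, both held to mark the lens epithelium, therefore moved in opposite directions in WT cells.

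Mesenchymal markers moved in the same comparisons. In WT cells over 12 h 2 of 9 rose and 6 fell (median -0.30), where COL1A1 fell by 1.21 (SE 0.0381, adjusted p = 1.11e-30 by edgeR) and SNAI2, a repressor of epithelial genes, rose by 2.11 (SE 0.0749, adjusted p = 1.19e-28), each in 3 of 3 libraries. In KO cells 2 rose and 3 fell (median -0.44), or 2 and 6 without KO 0 h replicate 1. With all libraries ACTA2, the smooth muscle actin, rose by 1.22 there (SE 0.169, adjusted p = 0.00139) and PDGFRB, a receptor of fibroblasts and pericytes, had a log2 fold change of -1.915 (SE 0.2085, adjusted p = 0.000517), each in 3 of 3 libraries. At 12 h 4 were higher and 4 lower in KO cells (median -0.17). With all 12 libraries in one fit 3 of 9 were called there. At 0 h 0 of 9 passed by edgeR with all libraries (median -0.20). There were 5 at an unadjusted p under 0.05, 1 called by DESeq2 and 0 by limma. Leaving out KO 0 h replicate 1 gave 2 higher and 5 lower at 0 h. In the difference of the responses 2 passed (median 0.04), or 3 positive and 3 negative of 9 without that library. Their part in the changes of PAX6, TFAP2A and MEIS1 was not tested.

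The remaining marker lists were small. For the retinal pigment epithelium, whose summed level was 1.48 to 2.68 FPKM per library, MITF, the master factor of pigment cells, fell by 1.20 in WT cells (SE 0.143, adjusted p = 4.37e-10 by edgeR) and was at -0.05 in KO cells (SE 0.161, adjusted p = 0.836). The difference for MITF was 1.15 (SE 0.216, adjusted p = 0.00235), and 1 of 4 genes fell in WT cells. In KO cells 0 of 3 passed (0 at an unadjusted p under 0.05, 0 by DESeq2 and 0 by limma), at 12 h 2 were higher and 1 lower of 4, and at 0 h 0 of 4 passed (2 at an unadjusted p under 0.05, 0 by DESeq2 and 0 by limma). When KO 0 h replicate 1 was left out, of 4 genes each, 1 fell in KO cells, 1 was higher at 0 h, and 2 passed in the difference of the responses. For the neural retina, LHX2, a homeobox factor of the optic vesicle and the most abundant of its list, rose by 1.46 in WT cells (SE 0.0943, adjusted p = 1.39e-18) and by 2.0 in KO cells (SE 0.114, adjusted p = 3.78e-05), and at 0 h it was lower in KO cells by -0.72 (SE 0.129, adjusted p = 0.00917), each in 3 of 3 libraries.

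The neural retina list summed to 5.08, 4.88 and 4.48 FPKM at WT 0 h, 11.8, 12.9 and 12.8 at WT 12 h, 3.88, 3.28 and 3.58 at KO 0 h, and 11.6, 10.9 and 11.1 at KO 12 h, with all treated libraries above all untreated ones. It had 2 of 3 genes higher in WT cells over 12 h, 1 of 2 lower at 0 h, 1 higher and 1 lower of 3 in KO cells, 0 of 3 called by edgeR at 12 h between genotypes (1 at an unadjusted p under 0.05, 0 by DESeq2 and 0 by limma) and 0 of 3 in the difference of the responses (2 at an unadjusted p under 0.05, 1 by DESeq2, 0 by limma on log2(FPKM + 1) and 1 on log2(FPKM + 0.1)). These counts without KO 0 h replicate 1 were 1 higher and 1 lower of 2 at 0 h, 2 higher and 1 lower of 3 in KO cells and 1 of 3 in the difference of the responses. Of the surface epithelium list, which summed to 86.0 to 171 FPKM per library with the highest value in KO 0 h replicate 1, only the simple keratins KRT8 and KRT18 were tested. KRT8, the most abundant, and KRT18 were both lower in KO cells at 12 h, KRT8 by -0.22 (SE 0.0333, adjusted p = 7.04e-07) and KRT18 by -0.58 (SE 0.0460, adjusted p = 1.68e-12), each in 3 of 3 libraries. KRT18 fell by 0.34 in WT cells (SE 0.0554, adjusted p = 8.99e-07) and by 1.09 in KO cells (SE 0.184, adjusted p = 0.00336). For this list edgeR called 0 of 2 at 0 h (0 at an unadjusted p under 0.05, 0 by DESeq2 and 0 by limma) and 0 of 2 in the difference of the responses (2 at an unadjusted p under 0.05, 1 by DESeq2 and 0 by limma). Both fell in KO cells without KO 0 h replicate 1, and in the difference of the responses KRT8 (-0.30, adjusted p = 2.58e-06) and KRT18 (-0.49, adjusted p = 7.08e-08) passed, with 0 of 2 at 0 h.

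Of the blood cell markers, CD68 stayed under 10 reads and PTPRC had at most 20, the list summed to at most 0.125 FPKM, and PTPRC fell in WT cells over 12 h. It was not called by edgeR at 0 h or in the difference of the responses (0 of 1 each, with 0 at an unadjusted p under 0.05, 0 by DESeq2 and 0 by limma), and could not be tested in the other comparisons. It was called in both without KO 0 h replicate 1, at 0 h (adjusted p = 0.000178) and in the difference of the responses (adjusted p = 0.00888).

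Genes beside the members were read for shared signal, since the strand setting of the counting is not given in the sources used here and reads of overlapping genes on opposite strands cannot be told apart. ELP4, a subunit of Elongator whose last introns hold enhancers of PAX6, overlaps the end of PAX6 by 5550 bases on the opposite strand and had summed reads of 794 at WT 0 h, 452 at WT 12 h, 670 at KO 0 h and 314 at KO 12 h. Like PAX6 it fell in WT cells, by 0.71 (adjusted p = 5.40e-07 by edgeR), and was lower in KO than in WT cells at 12 h, by 0.57 (adjusted p = 0.000545). It also fell in KO cells, by 1.05 (adjusted p = 0.00141). PAUPAR, a noncoding RNA that overlaps PAX6 by 5756 bases on the opposite strand, had summed reads of 28, 38, 16 and 6 in the same groups and was not called where it could be tested. The antisense gene TFAP2A-AS1 lies within TFAP2A over 7107 bases, had 160, 79, 136 and 93 summed reads in the same order of groups, and fell in WT cells by 0.90 (adjusted p = 0.00162). TFAP2A-AS2, also within TFAP2A, had 257, 241, 221 and 184 and was not called. LINC00518, 9596 bases from TFAP2A, had 2 to 14 reads per library.

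Around SIX3 lie several noncoding RNAs, of which SIX3-AS1 (25 bases away) had at most 12 reads in a library, LINC01833 at most 19, AC012354.1 at most 17 and RF02247 at most 11. Near PITX3, the gene GBF1 on the opposite strand, an exchange factor of the Golgi, had 1170 to 2979 reads per library, and ELOVL3, an elongase of fatty acids that lies 597 bases from PITX3, had summed reads of 0 at WT 0 h, 27 at WT 12 h, 2 at KO 0 h and 19 at KO 12 h. ELOVL3 and PITX3 each had more reads at WT 12 h than at WT 0 h, both in small numbers. LINC01389, 7595 bases from FOXE3, had 1 to 13 reads per library. No neighbour of MEIS1, PROX1, MAF, SOX1 or SOX2 within 10 kb reached 10 reads.

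Genes whose level ran much like a member's over the 12 libraries are given as a description, on log2(CPM + 1) over 16856 genes. For PAX6 they were FBXW8 (Pearson r = 0.984) and PPARA (0.983), for TFAP2A ZMYM3 (0.993), LIX1L (0.990) and KNL1 (0.990), for MEIS1 HPCAL4 (0.979), ALDH3A2 (0.976) and HSD17B12 (0.969), and for SIX3 ELK4 (0.927), PIK3R4 (0.905) and ELOVL2 (0.905). The libraries fall into 4 groups of 3, so these values rest largely on group means.

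The deposited counts are per gene, and isoforms were not analysed here. GENCODE 29 lists 84 transcripts of PAX6, 58 of them coding with lengths from 676 to 7290 bases (median 1765), against a length of 20812 bases used for its FPKM. For TFAP2A it lists 19, of which 9 coding transcripts have 417 to 3829 bases, and for MEIS1 17, of which 6 coding ones have 363 to 5111 bases, while SIX3 has a single transcript of 2523 bases. FPKM on the merged length is therefore lower for PAX6, TFAP2A and MEIS1 than it would be on the length of any coding transcript. For SIX3 it is the same. This bears on the order of levels between members. Within a member it also enters the fits by limma on FPKM with a pseudocount and the gene length offset. The fits to counts without that offset do not use it.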

How the data were processed

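The 12 libraries of HLE-B3 RNA were put into 4 groups of 3 by their labels. Total reads on genes were 15602183 to 17659496 per library. The deposited counts are whole reads per gene without normalization, made by the authors with HISAT2 2.0.5 and featureCounts 1.5.0-p3 on GRCh38 per the submitters' processing notes. FPKM, also deposited, is what the authors derived from those counts with gene length and library size. The annotation release, strand setting and handling of multimapping reads are not given in the sources used here.

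Counts were tested with edgeR 4.0.16 in R 4.3.3 by a robust quasi-likelihood fit with TMM scaling, on genes kept by filterByExpr (minimum count 10). Each pair of groups used its own 6 libraries and the interaction used all 12. A gene was called at a Benjamini-Hochberg adjusted p under 0.01 over all genes tested. The code was tested on simulated data. Each SE is the absolute log2 fold change over the square root of F. Alternatives were DESeq2 1.42.0, limma 3.58.1 on log2(FPKM + 1) and log2(FPKM + 0.1), RLE and upper quartile scaling, no filter, at least 10 reads in every library, all 12 libraries in each fit, a replicate block, an adjusted p under 0.05, each library left out in turn and, chosen after seeing the data, a gene length offset (lowess span 0.3).

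The 10 members, the lists (lens structural and fibre genes, lens epithelium, regulators and partners, induction signals, relatives of the members, and mesenchymal, retinal pigment epithelium, neural retina, surface epithelium and blood cell markers) and the settings were chosen with earlier results of these data known. Genes named are the members, ATG7, genes within 10 kb of a member with at least 10 reads in some library, from each list the most abundant gene, genes at 0 or under 10 reads and up to 4 called genes with the largest log2 fold change and a mean above 1 FPKM in a group compared, the most abundant relative of each family, and the 3 genes most like each tested member by Pearson r. Others are marked where they occur. Some genes that this rule names are not reported here. Intervals are exact Poisson at 95%, and a count of 0 is given a floor of 3 reads.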

Additional observations from a re-analysis of the deposited data

Results flagged for a closer look

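The responses of KO and WT cells to 12 h with H2O2 were compared by the interaction test of edgeR over all 12 libraries. They differed past the threshold for 1 member and for 4 of the called list genes with the largest log2 fold changes. On the log2 scale, as KO minus WT, the difference was 1.15 for the member MEIS1 (SE 0.271, adjusted p = 0.00806), whose 3 KO 12 h libraries were above the other 9. It was 1.5 for FGFR3 (SE 0.137, adjusted p = 2.87e-05), 1.15 for MITF (SE 0.216, adjusted p = 0.00235), -1.22 for MAFF (SE 0.157, adjusted p = 0.000252) and -1.84 for SOX7 (SE 0.258, adjusted p = 0.000422). Without KO 0 h replicate 1 the values were 1.25 for MEIS1, 1.42 for FGFR3, 1.03 for MITF, -1.07 for MAFF and -1.86 for SOX7, each past the threshold. The MEIS1 call was kept in 8 of 21 alternatives and in 2 of 12 fits that left out 1 library, with an adjusted p from 0.000265 to 0.0745. It was lost with the replicate block (1.15, adjusted p = 0.0130), by limma on log2(FPKM + 0.1) (0.95, adjusted p = 0.0134) and with the gene length offset (0.78, adjusted p = 0.0745). Among other genes named, EYA4, SMARCA4, MEIS2, HES1, RARA, BMPR1A, PAX8 and SOX4 also passed in the interaction. For single genes, groups of 3 were not tested for values far from the others.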

How the results depend on the processing

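The number of members called in KO against WT cells at 12 h was 3, and it was 1 with all 12 libraries in one fit, 1 by limma on log2(FPKM + 1) and 1 by limma on log2(FPKM + 0.1), with 2 to 3 when each library was left out. The share of all genes called was 55.6%, and 28.9%, 48.8% and 48.6% in these 3 settings. In untreated KO against WT cells it was 0, and 1 by DESeq2, 1 with all 12 libraries in one fit and 1 at an adjusted p under 0.05 (all genes 7.7%, and 16.4% by DESeq2 and 18.7% in the fit of 12), with 0 to 2 when each library was left out. In WT cells over 12 h it was 2, and 1 with all 12 libraries in one fit, 4 with the gene length offset and 4 at an adjusted p under 0.05 (all genes 61.0%, and 40.5% in the fit of 12 and 59.7% with the offset), with 2 to 3 when each library was left out. In KO cells over 12 h it was 1, and 2 by DESeq2, 2 with upper quartile scaling, 2 with no filter on low counts, 3 with all 12 libraries in one fit, 3 with the gene length offset and 3 at an adjusted p under 0.05 (all genes 26.0%, and 35.7%, 26.3%, 14.2%, 38.7% and 32.6% in the first 5 of these settings), with 1 to 3 when each library was left out. In the difference of the responses it was 1, and 2 with no filter on low counts, 0 with the replicate block, 0 by limma on log2(FPKM + 0.1), 2 with the gene length offset and 3 at an adjusted p under 0.05 (all genes 14.0%, and 11.1%, 11.8%, 13.8% and 14.5% in the first 4 of these settings), with 0 to 3 when each library was left out. The cause was not tested. Under the replicate block the counts of the other 4 comparisons were 3, 0, 2 and 1 in the order above.

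Log2 fold changes that turned their sign were those of 3 results. SIX3 in KO against WT cells at 12 h (-0.01) was 0.0162 with no filter on low counts, 0.13 with the gene length offset, and 0.0306, 0.0140 and 0.11 without WT 12 h replicate 1, WT 12 h replicate 2 and KO 12 h replicate 1, and ran from -0.0951 to 0.11 over the libraries left out. MEIS1 in untreated KO against WT cells (-0.01) was 0.0059 with the replicate block, 0.0042 by limma on log2(FPKM + 0.1), 0.18 with the gene length offset, and 0.22 and 0.11 without WT 0 h replicate 1 and KO 0 h replicate 3, and ran from -0.130 to 0.22 over the libraries left out. PAX6 in the difference of the responses (-0.16) was 0.0701 without KO 0 h replicate 2 and ran from -0.429 to 0.0701 over the libraries left out, and was -0.698 with the gene length offset (adjusted p = 0.00700).

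Of 340 alternative values of the members' log2 fold changes, 282 kept their direction and side of the threshold, 22 passed it newly, 25 lost it and 11 turned. Of 900 alternative counts for the gene lists, 716 stayed within 1.5 times the main count and 184 did not. Across groups, residual r was from -0.0911 to 0.117 in 18 pairs of libraries with the same replicate number and from -0.133 to 0.132 in 36 other pairs. With 3 libraries a group, and MEIS1 at 37 to 163 reads, small differences lie within the spread between replicates. Members with at most 10 reads in every library were left out of the tests by the filter.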
